A study of Mus musculus with 12 samples.

Results

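Gfi1 and Gfi1b encode paralogous zinc finger repressors, and Kdm1a and Rcor1 encode proteins of the corepressor complex that they recruit. The rows were taken by gene symbol, and all 4 genes were found once each among the 14560 genes of the table. RNA was measured by sequencing in 4 populations sorted from the bone marrow of C57BL/6 mice, with 3 libraries per population, 12 in all. All were untreated as far as the labels say, with no genetic change and no age given. DN-GMPs, Pro-BMPs and Pre-BMPs share the gate of granulocyte-monocyte progenitors: negative for B220, CD3, Ter119, CD11b, Gr1 and Sca1, and positive for c-Kit, CD34 and CD16/32. They differ in E-cadherin (CDH1) and the IgE receptor chain FceRIa: DN-GMPs lacked both, Pro-BMPs carried CDH1 alone and Pre-BMPs carried FceRIa alone. Basophils were negative for B220, CD4, CD8a, Ter119, Sca1 and c-Kit, and positive for CD49b and FceRIa. Cells came from 3 mice, described as giving independent triplicates. Library numbers run from 1 to 3 and are not tied to an animal in the labels, and p-values therefore reflect library-to-library spread.

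GFI1 and GFI1B share a short N-terminal SNAG domain and a C-terminal block of zinc fingers that bind DNA around the core AATC. Through the SNAG domain they hold LSD1, the product of Kdm1a, which removes methyl groups from lysine 4 of histone H3, and CoREST, the product of Rcor1, which joins LSD1 to histone deacetylases. Gfi1 is known for its role in neutrophil granulocytes, lymphocytes and stem cells, and Gfi1b for erythroid cells, megakaryocytes and platelets. Each of the paralogs is reported to repress its own gene and the other.

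In these libraries Gfi1 and Gfi1b changed places along the series of populations, in 2 steps. Gfi1b rose between DN-GMPs and Pro-BMPs while the Gfi1 level changed by less than the spread between libraries. Gfi1 then fell between Pro-BMPs and Pre-BMPs, where Gfi1b rose again. Kdm1a and Rcor1 were present throughout, with population means within 1.47-fold of each other for either gene. In bulk samples such as these, fewer cells of a type and less RNA per cell cannot be told apart, and whether the paralogs were present in the same Pro-BMP cells was not measured.

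Gfi1b (ENSMUSG00000026815) lies on the minus strand of chromosome 2, bases 28609450 to 28621982 of GRCm38, with an exon union of 1830 bases in GENCODE M21 and no overlapping gene. Gfi1 (ENSMUSG00000029275) lies on the minus strand of chromosome 5, bases 107716657 to 107726036, with an exon union of 3187 bases. Of these bases, 101 (3.17%) are shared with A430072P03Rik on the other strand, and the library kits do not mark strand, so reads there cannot be assigned. Kdm1a (ENSMUSG00000036940; chromosome 4, 136550540 to 136602723, minus strand; exon union 5179 bases) shares no exon base with another gene. Rcor1 (ENSMUSG00000037896; chromosome 12, 111039351 to 111115901, plus strand; exon union 5684 bases) shares 53 exon bases (0.932%) with Gm48632.

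The bases before the Gfi1b start are shown because the paralogs' own recognition core is frequent there, in the gene that rose; 30 bases before a Gfi1 start are set beside them. The sequences are from RefSeq (GRCm38.p6), both on the minus strand, and run from position -250 to -1 from the Gfi1b start and from -213 to -184 from the Gfi1 start. Starts here are those of RefSeq. By the GENCODE spans given above, the Gfi1 stretch lies inside its gene and the Gfi1b stretch just outside, so they are not placed alike. Capitals mark AATC (read as GATT on the opposite strand) and GATAA, the core bound by GATA factors; the search covered both strands, and no AATC match overlapped a GATAA match.
Gfi1b chr2:28621983-28622232: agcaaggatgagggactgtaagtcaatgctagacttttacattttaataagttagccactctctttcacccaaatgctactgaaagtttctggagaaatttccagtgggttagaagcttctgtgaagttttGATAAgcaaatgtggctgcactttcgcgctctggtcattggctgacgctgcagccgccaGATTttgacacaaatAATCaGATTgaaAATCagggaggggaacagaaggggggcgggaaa
Gfi1 chr5:107725989-107726018: ctcccgaaagcaaGATTcagtttgcacact
The Gfi1b window, which reaches from 250 bases before to 50 after the start, held 4 AATC matches, all within 31 bases, at positions -60 to -30 from the start. Of 32851 such windows in the RefSeq table, 10.1% held at least 4 matches and 73.1% at least 1. It held 1 GATAA match, at positions -119 to -115, as at least 1 did in 25.4% of windows. The table lists 2 starts for Gfi1: the window of the first held 1 AATC match, at positions -200 to -197 from the start, and that of the second held 0, and neither held GATAA. The Kdm1a window held 1 AATC match and the Rcor1 window 0. The windows differed in GC content, at 44.3% for Gfi1b, 58% for both Gfi1 windows, 61.3% for Kdm1a and 69.3% for Rcor1. Of all windows, 20.1% had a lower GC content than that of Gfi1b, and the match counts were not adjusted for it. Matches of letters this short are a description of the sequence and not sites.

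Levels are given in CPM, reads per 1000000 of the scaled library size that the authors used. Each library had 29762981 to 42502405 reads on listed genes, and the pair were counted in 372 to 6642 reads (Gfi1) and 120 to 7384 reads (Gfi1b). A count of 0 would allow up to 0.0745 CPM (3 reads in the smallest library, counting error only), far under any value of the 4 genes. The RNA of the sorting markers followed the gates for FceRIa, with Fcer1a at 0 in every DN-GMP library and at 458 ± 31.6 CPM (SD, n = 3) in Pre-BMPs. Cdh1 RNA ran against the gate: Pre-BMPs, gated as lacking CDH1 protein, held 147 ± 37.6 CPM, and Pro-BMPs, gated as carrying it, 42.8 ± 11.7 CPM, with no overlap between their libraries. The scaled library size was 0.839 to 0.858 of the summed table reads in basophils against 1.03 to 1.08 in the other libraries, which bears on every comparison with basophils.

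Gfi1b was low in DN-GMPs, at 2.55, 2.76 and 4.79 CPM in libraries 1 to 3. In Pro-BMPs its level was 34.4, 20.2 and 43.7 CPM, and in Pre-BMPs 150.1, 114 and 116 CPM. Basophils held 102, 87.5 and 142 CPM. Every Pro-BMP library stood above every DN-GMP library and below every Pre-BMP library, while the basophil range overlapped that of Pre-BMPs. The means were 3.37 ± 1.24 CPM in DN-GMPs (SD, n = 3, here and below), 32.8 ± 11.8 in Pro-BMPs, 127 ± 20.4 in Pre-BMPs, then 110.3 ± 28.0 in basophils, a 37.6-fold span between the highest and the lowest mean.

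Gfi1 followed another course. Its level was 96.7, 130 and 81.0 CPM in the DN-GMP libraries and 98.0, 106 and 113 CPM in the Pro-BMP libraries. Pre-BMPs held 9.43, 7.13 and 11.2 CPM, and basophils 24.6, 17.0 and 9.20 CPM. The DN-GMP and Pro-BMP ranges overlapped and lay wholly above those of the other populations. The basophil libraries were spread, with library 3 inside the Pre-BMP range and the other 2 above it. The means were 103 ± 25.0 CPM in DN-GMPs, 106 ± 7.73 in Pro-BMPs, 9.25 ± 2.03 in Pre-BMPs, then 16.9 ± 7.68 in basophils, an 11.4-fold span.

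**Figure D1:**
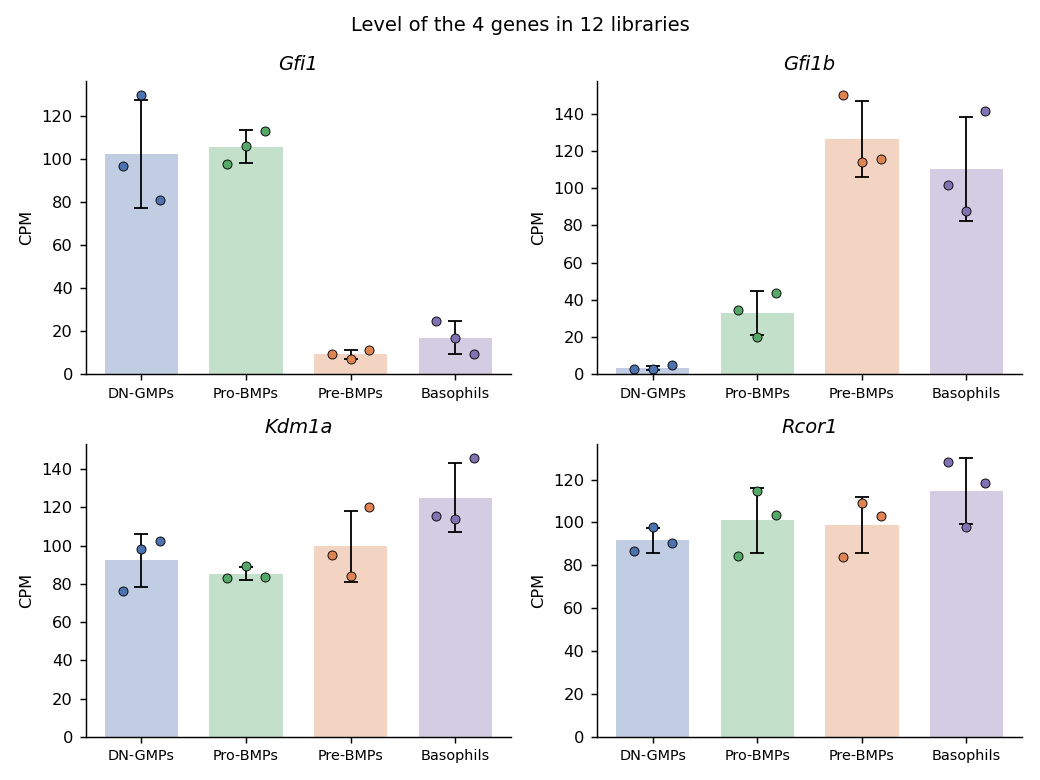
Level of Gfi1, Gfi1b, Kdm1a and Rcor1 in CPM (vertical axes, each from 0) in the 4 populations; points are the 3 libraries, bars the mean and error bars the SD. Gfi1 drops from 106 to 9.25 CPM between Pro-BMPs and Pre-BMPs, Gfi1b climbs from 3.37 CPM in DN-GMPs to 127 CPM in Pre-BMPs, and Kdm1a and Rcor1 stay between 76.4 and 146 CPM in every library.

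Changes were tested with limma on the deposited log2 values, with Benjamini-Hochberg adjustment over all 14560 genes and a call at an adjusted p under 0.05. Among the 4 genes, only Gfi1b was called between Pro-BMPs and DN-GMPs, where 2.53% of all genes were called (2% higher, 0.536% lower). The log2 rise of Gfi1b was 3.27 (SE 0.325, limma adjusted p = 1.38e-04). The Gfi1 change was 0.07, with a 95% interval from -0.64 to 0.78 (limma adjusted p = 0.960), so a change of either sign within that interval was not excluded. Without DN-GMP replicate 3 the Gfi1 value was -0.09.

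From Pro-BMPs to Pre-BMPs the log2 change of Gfi1 was -3.54 (SE 0.325, limma adjusted p = 7.44e-05). Over the same step Gfi1b rose by 2.01 (SE 0.325, limma adjusted p = 0.00296). Of all genes, 9.49% were called at this step, 4.8% higher and 4.69% lower. Both paralogs were therefore called here, in opposite directions, with no overlap between the libraries of the populations. From DN-GMPs to Pre-BMPs, where 21.9% of genes were called (12.2% higher, 9.69% lower), the difference was 5.28 for Gfi1b (limma adjusted p = 8.41e-07) and -3.47 for Gfi1 (limma adjusted p = 2.46e-05).

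Between Pre-BMPs and basophils neither paralog was called, though 30.4% of all genes were (13.9% higher, 16.5% lower). The Gfi1b difference, basophils minus Pre-BMPs, was -0.22 (95% interval -0.93 to 0.50, limma adjusted p = 0.662). That of Gfi1 was 0.78 (95% interval 0.07 to 1.50, limma adjusted p = 0.0933). The Gfi1 value rested on basophil replicate 3, without which it was 1.17 and called (limma adjusted p = 0.00840), and it was also called after quantile normalization, at 0.93 (limma adjusted p = 0.0401). Basophils still held less Gfi1 than DN-GMPs (-2.68, limma adjusted p = 4.68e-05, with 46.4% of genes called, 23.2% in each direction) and than Pro-BMPs (-2.75, limma adjusted p = 4.85e-05, with 41.1% of genes called, 19.3% higher and 21.8% lower). They held more Gfi1b than either, by 5.06 (limma adjusted p = 3.20e-07) and 1.79 (limma adjusted p = 0.00106). The order of Gfi1b levels was thus Pre-BMPs and basophils, which could not be separated, then Pro-BMPs, then DN-GMPs. For Gfi1 it was Pro-BMPs and DN-GMPs, not separated, then basophils and Pre-BMPs, not separated.

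The balance of the pair was computed within each library, which removes the library scaling. It is given as a description with no test. Per length (reads per kilobase of exon and per 1000000 reads of scaled library size, RPKM), Gfi1b made up 4.39%, 3.56% and 9.35% of the summed level of the pair in the DN-GMP libraries. In Pro-BMPs the share was 37.96%, 24.9% and 40.2%, in Pre-BMPs 96.5%, 96.5% and 94.7%, and in basophils 87.8%, 90.0% and 96.4%. Gfi1 was thus the more abundant of the pair in all 6 DN-GMP and Pro-BMP libraries and Gfi1b in all 6 Pre-BMP and basophil libraries. The mean share was 5.77% ± 3.13 in DN-GMPs, 34.3% ± 8.25 in Pro-BMPs, 95.9% ± 1.03 in Pre-BMPs, then 91.4% ± 4.46 in basophils.

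On the log2 scale, Gfi1b minus Gfi1 per length averaged -4.16 in DN-GMPs, -0.96 in Pro-BMPs, 4.59 in Pre-BMPs, then 3.59 in basophils. The difference moved by 3.20 between DN-GMPs and Pro-BMPs, where the change of Gfi1b was 3.27 and that of Gfi1 0.07. It moved by 5.55 between Pro-BMPs and Pre-BMPs, where the change of Gfi1b was 2.01 and that of Gfi1 -3.54. The summed level of the pair was not constant: it was 34.0 ± 7.40 RPKM in DN-GMPs, 51.1 ± 7.68 in Pro-BMPs, 72.1 ± 11.2 in Pre-BMPs, then 65.6 ± 13.7 in basophils.

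**Figure D2:**
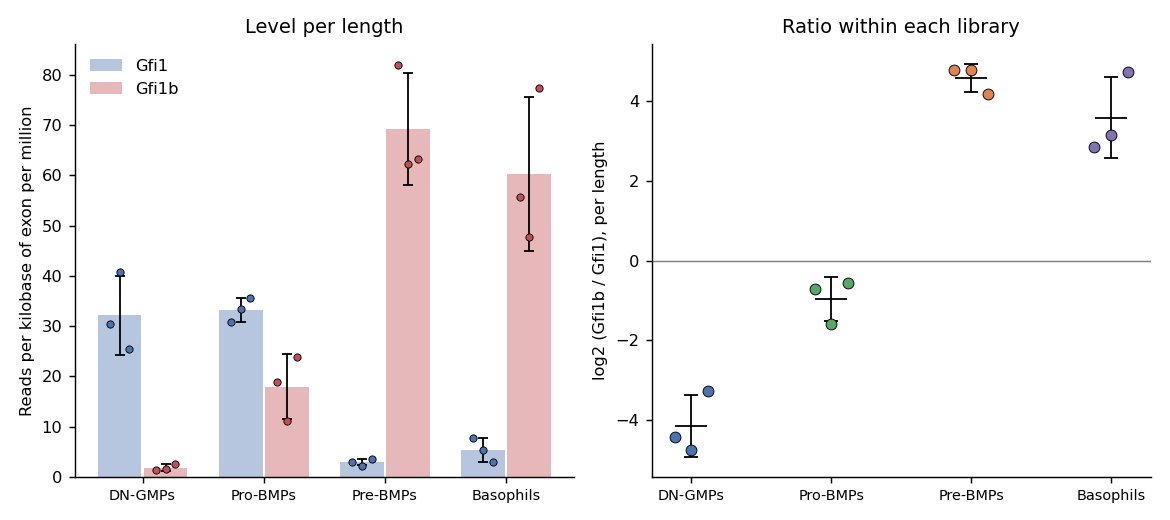
Left, Gfi1 and Gfi1b in RPKM, by population; right, log2 of Gfi1b over Gfi1 per length in each library. Points are libraries, bars (left) and horizontal marks (right) the mean of 3, error bars the SD; the ratio lies under 0 in all DN-GMP and Pro-BMP libraries and above 0 in all Pre-BMP and basophil libraries.

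Per length, Gfi1 stood above 89.2% of genes in DN-GMPs and 43.6% in Pre-BMPs. Gfi1b stood above 37.7% of genes in DN-GMPs and 95.9% in Pre-BMPs, with means of 1.84 and 69.2 RPKM. At its low point, Gfi1 was at 2.90 RPKM in Pre-BMPs, above the Gfi1b level of DN-GMPs.

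Kdm1a, the demethylase, held 76.4, 98.4 and 102 CPM in DN-GMPs and 83.1, 89.4 and 83.5 CPM in Pro-BMPs. Its level was 95.1, 84.0 and 120.1 CPM in Pre-BMPs and 115, 114 and 146 CPM in basophils. The ranges of the 3 progenitor populations overlapped, and the basophil range lay above those of DN-GMPs and Pro-BMPs but overlapped that of Pre-BMPs. Rcor1, the CoREST scaffold, held 86.7, 98.1 and 90.2 CPM in DN-GMPs, 84.4, 115 and 103 CPM in Pro-BMPs, 84.0, 109 and 103 CPM in Pre-BMPs, and 128, 98.0 and 118 CPM in basophils. All 4 Rcor1 ranges overlapped.

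The highest population mean was 1.47 times the lowest for Kdm1a and 1.25 times for Rcor1. Over the 12 libraries the SD of the log2 value was 0.275 for Kdm1a and 0.199 for Rcor1, against 1.69 for Gfi1 and 2.24 for Gfi1b. Among 8652 genes with a mean of at least 10 CPM, 13.3% had a lower SD than Kdm1a and 3.90% a lower SD than Rcor1. Per length, means ran from 16.5 to 24.2 RPKM for Kdm1a and from 16.1 to 20.2 RPKM for Rcor1, above 79.4% to 84.4% of genes in every population.

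Neither gene was called across the steps at which the paralogs changed. From DN-GMPs to Pro-BMPs the difference was -0.10 for Kdm1a (95% interval -0.46 to 0.26) and 0.13 for Rcor1 (95% interval -0.21 to 0.47). From Pro-BMPs to Pre-BMPs it was 0.21 for Kdm1a (95% interval -0.15 to 0.57) and -0.03 for Rcor1 (95% interval -0.36 to 0.31); the Rcor1 value was 0.0049 with total-read scaling, 0.07 without Pro-BMP replicate 2 and 0.08 without Pre-BMP replicate 1. The Gfi1b changes of 3.27 and 2.01 and the Gfi1 change of -3.54 at these steps lie outside these intervals.

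Kdm1a was called higher in basophils than in Pro-BMPs (0.54, SE 0.164, limma adjusted p = 0.0202) and than in DN-GMPs (0.44, SE 0.164, limma adjusted p = 0.0457), but both calls were lost when values were scaled to total reads on listed genes, at 0.26 (limma adjusted p = 0.232) and 0.18 (limma adjusted p = 0.391). The call against Pro-BMPs was also lost without Pro-BMP replicate 1 (0.52), Pro-BMP replicate 3 (0.53) or basophil replicate 3 (0.43). That against DN-GMPs was lost without any of 9 libraries and held without DN-GMP replicate 3, Pre-BMP replicate 2 or Pre-BMP replicate 3; the values ran from 0.31 to 0.52. Rcor1 minus its Pre-BMP level was 0.22 in basophils (95% interval -0.12 to 0.55, limma adjusted p = 0.320) and turned to -0.10 with total-read scaling. That scaling moved the median of all genes between basophils and Pre-BMPs from -0.10 to -0.42, and the share of called genes that were higher from 45.6% to 26.6%. Against DN-GMPs that share moved from 49.98% to 38.7%, and against Pro-BMPs from 47.0% to 33.0%. For the 4 populations at once, where 46.8% of genes were called, limma's moderated F-test gave adjusted p = 6.16e-07 for Gfi1b, 6.14e-06 for Gfi1, 0.0664 for Kdm1a and 0.346 for Rcor1.

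**Figure D3:**
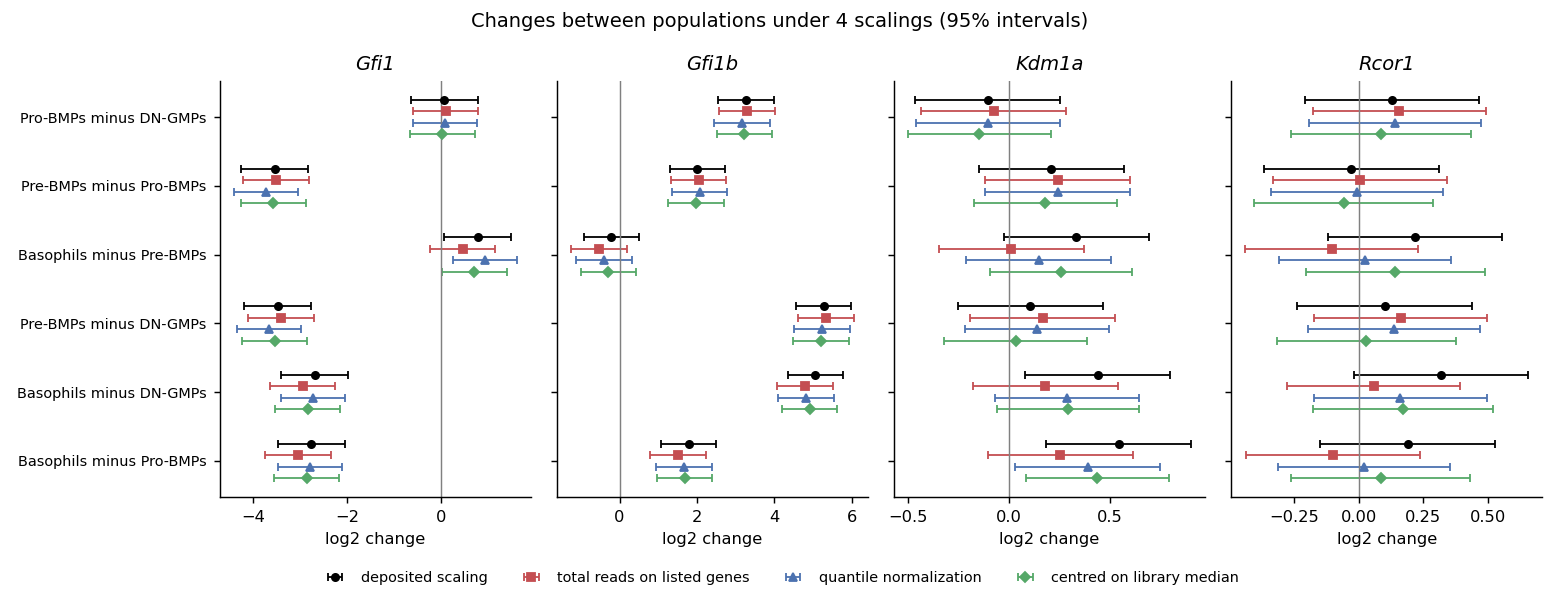
Log2 change between each pair of populations (horizontal axes, a separate range for each gene) for the 4 genes, with limma's 95% intervals, under the deposited scaling and 3 other scalings. For Gfi1 and Gfi1b the called changes keep their sign across scalings; for Kdm1a and Rcor1 the changes in basophils shrink with total-read scaling, from 0.54 to 0.26 for Kdm1a against Pro-BMPs.

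All 12 genes of a list of complex partners of LSD1 and CoREST were measured. Of these, 0 were called from DN-GMPs to Pro-BMPs, where 2.53% of all genes were, and 1 from Pro-BMPs to Pre-BMPs, where 9.49% of all genes were, with list medians of 0.08 and 0.16 against 0.02 and 0.02 over all genes. The gene called was Gse1, which encodes a subunit found with LSD1 and CoREST, at 18.1 ± 1.81 CPM in Pro-BMPs and 37.2 ± 1.22 in Pre-BMPs (log2 change 1.04, limma adjusted p = 0.00583). Between Pre-BMPs and basophils 1 was higher and 1 lower, against 13.9% and 16.5% of all genes, with a list median of 0.03 against -0.10. These counts are near the shares over all genes. Hdac2, a deacetylase subunit, fell from 189 ± 2.67 to 103 ± 10.7 CPM (log2 change -0.88, limma adjusted p = 4.70e-05). Phf21a, which encodes a reader of unmethylated histone H3, stood at 27.3 ± 4.59 and 43.3 ± 2.62 CPM (log2 change 0.68, limma adjusted p = 0.0205). The Phf21a call was lost with total-read scaling and without Pre-BMP replicate 1, basophil replicate 1 or basophil replicate 3 (limma adjusted p up to 0.178). Rcor2, a paralog of Rcor1, had 5.61 ± 1.86 CPM for DN-GMPs, 3.64 ± 2.63 for Pro-BMPs, 0.230 ± 0.382 for Pre-BMPs and 0.154 ± 0.266 for basophils. The step from Pro-BMPs to Pre-BMPs missed the threshold (log2 change -5.77, SE 1.68, limma adjusted p = 0.0548). Rcor2 was called lower in Pre-BMPs than in DN-GMPs (-6.57, limma adjusted p = 0.0169). In basophils it was called lower than in DN-GMPs (-7.09, limma adjusted p = 0.00497) and Pro-BMPs (-6.29, limma adjusted p = 0.0112). At these low levels the log2 changes depend in part on the added 0.5 read.

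Of 11 other reported protein partners of GFI1 or GFI1B, 10 were measured. From DN-GMPs to Pro-BMPs 0 were called, against 2.53% of all genes (list median 0.22 against 0.02). From Pro-BMPs to Pre-BMPs 1 was higher and 1 lower, against 4.8% and 4.69% of all genes (0.09 against 0.02). From Pre-BMPs to basophils 1 was higher and 2 lower, against 13.9% and 16.5% (-0.12 against -0.10). Prmt1, an arginine methyltransferase, declined along the series, with 163 ± 22.7 CPM in Pro-BMPs, 105 ± 15.8 in Pre-BMPs, then 58.8 ± 11.1 in basophils. Its last step was called in every alternative (log2 change -0.85, limma adjusted p = 0.00213). Its earlier step (-0.63, limma adjusted p = 0.0312) was lost without Pro-BMP replicate 1, Pro-BMP replicate 2, Pre-BMP replicate 1 or Pre-BMP replicate 3 (limma adjusted p up to 0.122) and with no trend. Cbfa2t3, the ETO family corepressor ETO2, rose in both later steps, with 28.9 ± 5.39 CPM in Pro-BMPs, 48.5 ± 5.02 in Pre-BMPs, then 85.3 ± 6.19 in basophils. Its changes were 0.76 (limma adjusted p = 0.0292) and 0.82 (limma adjusted p = 0.00716). The first was lost without Pro-BMP replicate 2, Pre-BMP replicate 2 or Pre-BMP replicate 3 (limma adjusted p up to 0.108) and the second with total-read scaling (limma adjusted p = 0.0611). Suv39h1, which methylates lysine 9 of histone H3, fell from 91.9 ± 16.3 CPM in Pre-BMPs to 40.7 ± 6.93 in basophils (-1.17, limma adjusted p = 4.38e-04).

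A list of other demethylases of histone H3 lysine 4, not meant as complete, held Kdm1b, Kdm5a, Kdm5b and Kdm5c. Of these 4, 0 were called from DN-GMPs to Pro-BMPs (2.53% of all genes), 2 were higher in Pre-BMPs than in Pro-BMPs (4.8% of all genes), and 1 was higher and 1 lower in basophils than in Pre-BMPs (13.9% and 16.5% of all genes). Kdm5b stood at 95.1 ± 2.32 CPM in Pro-BMPs, 157 ± 15.7 in Pre-BMPs, then 115 ± 12.1 in basophils. Its rise of 0.72 (limma adjusted p = 0.00703) was called in every alternative, and its later change of -0.46 (limma adjusted p = 0.0253) was lost without Pre-BMP replicate 1, Pre-BMP replicate 3 or basophil replicate 2 (limma adjusted p up to 0.0972) and with no trend. Kdm5a stood at 66.2 ± 8.28, 99.0 ± 5.44 and 138 ± 16.0 CPM in the same populations. Its changes of 0.59 (limma adjusted p = 0.0377) and 0.48 (limma adjusted p = 0.0380) were each lost without any single Pre-BMP library, Pro-BMP replicate 2 or basophil replicate 2 (limma adjusted p up to 0.133). The first was also lost without Pro-BMP replicate 1, and the second without basophil replicate 1. Both were lost with no trend, and the second with quantile normalization, median centring and total-read scaling (limma adjusted p = 0.469).

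Of 9 other genes whose products carry a SNAG domain, Snai3 alone was listed in the table. It held 0.224 ± 0.387 CPM in Pre-BMPs and 3.06 ± 1.41 CPM in basophils, a call (limma adjusted p = 0.0222) lost without Pre-BMP replicate 2, Pre-BMP replicate 3, basophil replicate 2 or basophil replicate 3 (limma adjusted p up to 0.0852).

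Genes reported elsewhere as repressed by GFI1 were called in both directions at the step where Gfi1 fell. Of 16 such genes 15 were measured. From DN-GMPs to Pro-BMPs, where Gfi1 was not called, 2 were called higher and 0 lower, against 2% and 0.536% of all genes (list median -0.17 against 0.02, or -0.20 with Il7r, at 0 in DN-GMPs, left out). Irf8 and Csf1r fell at this step without a call, as given below. From Pro-BMPs to Pre-BMPs, 5 were higher and 2 lower, against 4.8% and 4.69% of all genes (list median -0.05 against 0.02). From Pre-BMPs to basophils 6 were higher and 4 lower, against 13.9% and 16.5% of all genes (list median 0.93 against -0.10). The list was chosen with earlier results known, and the shares are set beside each other with no test. Meis1 and Cdkn1a are also among the Gfi1b targets below, and Spi1 is also among the factors below.

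Id2, an inhibitor of helix-loop-helix factors, rose from 6.55 ± 1.41 CPM in Pro-BMPs to 39.5 ± 8.36 in Pre-BMPs (log2 change 2.59, limma adjusted p = 9.78e-04). It had stood at 1.99 ± 1.01 CPM in DN-GMPs (1.82, limma adjusted p = 0.0182), a change lost without Pro-BMP replicate 3 (limma adjusted p = 0.0815) and with voom weights (limma adjusted p = 0.175) or only these populations fitted (limma adjusted p = 0.218). Csf1, the macrophage growth factor, stood at 5.57 ± 2.11 CPM in DN-GMPs and 34.4 ± 12.3 in Pro-BMPs (2.63, limma adjusted p = 0.00129; 0.136 with voom weights). Il7r, the interleukin 7 receptor chain, was read 0 to 0.0203 CPM in the Pre-BMP libraries and 118 ± 15.4 CPM in basophils (limma adjusted p = 1.59e-05). Hoxa9, a homeobox factor of progenitors, fell from 26.4 ± 5.02 CPM in Pre-BMPs to 2.04 ± 1.62 in basophils (-4.08, limma adjusted p = 2.10e-04). Of these 4 genes, 3 were thus called higher and Hoxa9 lower along the order of populations.

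Calls of 2 further genes on that list, Csf1r and Irf8, depended on single libraries. Csf1r, the receptor for that growth factor, had 162 ± 47.6 CPM in DN-GMPs, 28.6 ± 4.94 in Pro-BMPs and 3.28 ± 5.68 in Pre-BMPs, the last step called (limma adjusted p = 0.0306). That call was lost without any single Pro-BMP library, Pre-BMP replicate 1 or Pre-BMP replicate 2 (limma adjusted p up to 0.106). Irf8, a factor of monocyte and dendritic cells, had 331 ± 35.8 CPM in DN-GMPs, 15.5 ± 6.83 in Pro-BMPs, 4.09 ± 1.78 in Pre-BMPs, then 0.956 ± 1.40 in basophils. Its last step (limma adjusted p = 0.0420) was lost in 11 of 12 fits that left out a library, all but that without basophil replicate 1 (limma adjusted p up to 0.113), and with voom weights or no trend (limma adjusted p up to 0.146 over the alternatives). Both genes were lower in every Pro-BMP library than in every DN-GMP library. That step was not called for Irf8 (log2 change -4.50, SE 1.41, limma adjusted p = 0.152) or Csf1r (-2.47, SE 2.07, limma adjusted p = 0.677).

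All 9 genes reported as repressed by GFI1B were measured. From DN-GMPs to Pro-BMPs, where Gfi1b first rose, 0 were called, against 2.53% of all genes (list median 0.30 against 0.02). From Pro-BMPs to Pre-BMPs 3 were higher and 1 lower, against 4.8% and 4.69% of all genes (0.44 against 0.02). From Pre-BMPs to basophils 3 were higher and 2 lower, against 13.9% and 16.5% (0.64 against -0.10). Gata3, a lymphoid GATA factor, was at 0 in every Pro-BMP library and at 2.80 ± 1.17 CPM in Pre-BMPs, at least 47.0-fold higher against 3 reads per library (limma adjusted p = 2.87e-04). Meis1, a homeobox cofactor, rose from 29.3 ± 4.70 to 79.5 ± 13.5 CPM (1.44, limma adjusted p = 0.00974) and fell to 21.7 ± 2.93 CPM in basophils (-1.87, limma adjusted p = 5.56e-04). Myc fell from 235 ± 22.4 CPM in Pre-BMPs to 91.5 ± 12.8 in basophils (-1.37, limma adjusted p = 1.76e-05). Socs3, a brake on cytokine signalling, was at 1.01 ± 0.264 CPM in Pro-BMPs, at 0.0203, 0.0192 and 0.0383 CPM in Pre-BMPs and at 2.47 ± 0.520 CPM in basophils. The rise into basophils was called in every alternative (limma adjusted p = 0.00182), and the earlier fall (limma adjusted p = 0.0223) was lost without Pro-BMP replicate 1, Pro-BMP replicate 2 or any single Pre-BMP library (limma adjusted p up to 0.0747) and with voom weights (limma adjusted p = 0.111).

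Of 14 factors reported at regulatory elements of Gfi1 or Gfi1b, 2 were higher and 0 lower in Pro-BMPs than in DN-GMPs, against 2% and 0.536% of all genes (list median 0.22 against 0.02). Both encode GATA factors. Gata2 stood at 23.2 ± 4.11 CPM in DN-GMPs, 164 ± 59.9 in Pro-BMPs, 770.2 ± 157 in Pre-BMPs, then 2104 ± 218 in basophils, and its changes of 2.76, 2.29 and 1.47 were called at each step (limma adjusted p = 1.11e-04, 3.01e-04 and 0.00150). Gata1 stood at 5.92 ± 4.73 CPM in DN-GMPs and 55.4 ± 10.6 in Pro-BMPs (4.05, limma adjusted p = 0.0293). That call was lost without any single Pro-BMP library (limma adjusted p up to 0.103) and when only these populations were fitted (limma adjusted p up to 0.168 over the alternatives). Later means of Gata1 were 205 ± 12.4 CPM in Pre-BMPs and 151 ± 29.7 in basophils. Neither later step was called (1.91, limma adjusted p = 0.207, then -0.47, limma adjusted p = 0.727). From DN-GMPs to Pre-BMPs the Gata1 difference was 5.96 (limma adjusted p = 5.48e-04). The Gfi1b window printed above held 1 GATAA match; binding was not measured.

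From Pro-BMPs to Pre-BMPs, 2 of these factors were higher and 3 lower, against 4.8% and 4.69% of all genes (list median -0.04 against 0.02). Runx1, the core binding factor subunit, rose from 85.2 ± 6.98 to 244 ± 36.2 CPM (1.51, limma adjusted p = 1.96e-05). Lyl1, a helix-loop-helix factor, fell from 17.0 ± 4.08 to 4.78 ± 0.995 CPM (-1.83, limma adjusted p = 0.00547). From Pre-BMPs to basophils 8 were higher and 1 lower, against 13.9% and 16.5% of all genes (list median 0.56 against -0.10). Cebpa rose from 42.1 ± 5.38 to 138 ± 23.9 CPM (1.71, limma adjusted p = 1.50e-04). Cebpe, a factor of granulocyte maturation, fell from 12.3 ± 3.01 to 0.238 ± 0.301 CPM (limma adjusted p = 4.47e-04). It had been highest in Pro-BMPs, at 90.5, 69.3 and 77.0 CPM.

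**Figure D4:**
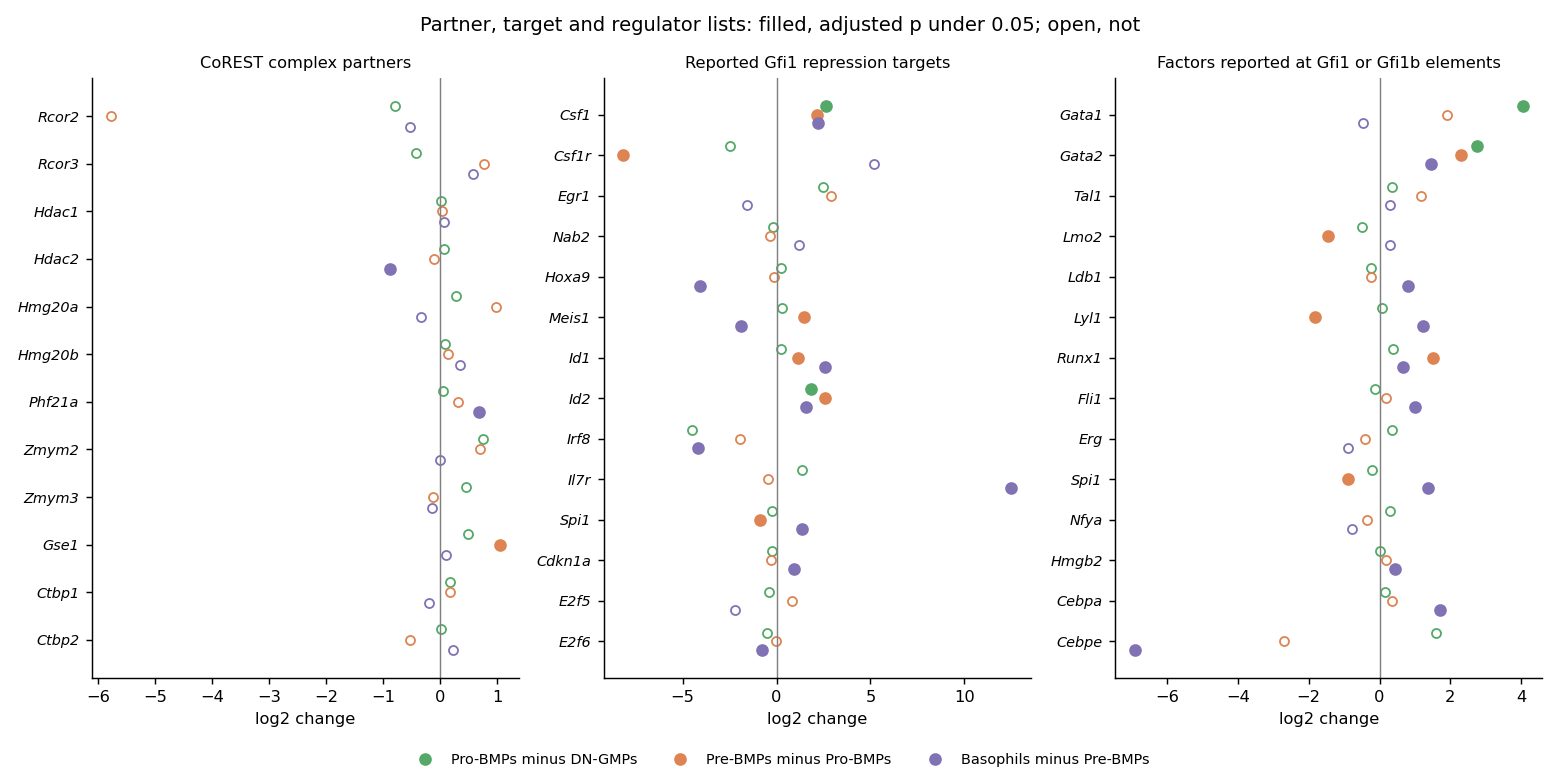
Log2 change at each step between neighbouring populations (horizontal axes) for 12 complex partners, 14 of the 15 measured Gfi1 targets (1 called at the second step is not shown) and 14 factors reported at Gfi1 or Gfi1b elements, 1 row per gene. Filled points passed limma's adjusted p of 0.05 and open points did not: 0, 1 and 2 partners, 2, 6 and 10 targets, and 2, 5 and 9 factors are filled at the 3 steps.

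Marker sums of several cell types differed between the populations, some at the steps where the paralogs changed and some not. The summed level of 11 neutrophil progenitor markers was 19909 to 22869 CPM for DN-GMPs, 18835 to 20962 for Pro-BMPs, 5667 to 6950 for Pre-BMPs and 3364 to 4590 for basophils, lower in all Pre-BMP libraries than in all Pro-BMP libraries, as Gfi1 was. Mpo, a granule enzyme, made up 55.2% of that sum in DN-GMPs and 70.8% in Pre-BMPs; Ltf was at 0 in every DN-GMP library and Fcnb in every basophil library. Of 12 erythroid markers 9 were listed, and their sum was 132 to 149 CPM for DN-GMPs, 185 to 236 for Pro-BMPs, 392 to 476 for Pre-BMPs and 63.1 to 71.9 for basophils. In Pre-BMPs the erythroid factor Klf1 was at 124 ± 23.1 CPM and the hemoglobin gene Hba-a1 at 3.61 ± 3.24 CPM. Tfrc, the transferrin receptor, which made up 69.1% of the DN-GMP sum and 60.3% of the Pro-BMP sum, had means of 127 ± 27.8 CPM for Pro-BMPs, 51.5 ± 9.40 for Pre-BMPs and 13.6 ± 3.72 for basophils. In basophils, where Gfi1b stayed at 110.3 ± 28.0 CPM, the erythroid sum was at its lowest and Klf1 was at 8.80 ± 2.57 CPM.

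Of 10 megakaryocyte and platelet markers 8 were listed, with sums of 61.7 to 90.0 CPM for DN-GMPs, 123 to 172 for Pro-BMPs, 363 to 514 for Pre-BMPs and 1318 to 1705 for basophils. Itga2b, an integrin chain, made up 89.8% of the sum in Pre-BMPs and 92.4% in basophils, while Pf4 was at 0 in every basophil library. The 12 basophil markers summed to 337 to 407, 1725 to 1968, 5202 to 6084 and 40137 to 45557 CPM along the same order. The 9 eosinophil markers summed to 26.3 to 48.3, 1912 to 3072, 2286 to 3828 and 352 to 526 CPM. Of 9 monocyte and dendritic cell markers 7 were listed, at 1227 to 1514, 74.5 to 126, 116 to 179 and 267 to 442 CPM. A single gene set most of the later sums: Cx3cr1 made up 86.1% in Pre-BMPs and Ccr2 86.5% in basophils, where Flt3 was at 0 in every library. Of 10 mast cell markers 4 were listed, with sums of 222 to 336, 292 to 322, 538 to 782 and 10.6 to 30.4 CPM, of which Kit made up 72.2% in Pre-BMPs and 96.9% to 98.3% elsewhere. The mast cell protease gene Cma1 was at 0.992 ± 0.651 CPM for Pro-BMPs, 141 ± 80.4 for Pre-BMPs and 0.554 ± 0.879 for basophils. Another, Tpsb2, was at 0 in every DN-GMP and Pro-BMP library and at 33.6 ± 24.6 CPM in Pre-BMPs, against 0.0231 ± 0.0231 in basophils. Both protease genes, named after their values were seen, had their highest mean in Pre-BMPs and were far lower in basophils. Neither Gfi1 nor Gfi1b was called between these populations. Mitf, listed with the protease genes and Kit, had no such peak. Its mean was 4.11 ± 1.11 CPM in Pre-BMPs, against 4.09 ± 2.69 for the Pro-BMP libraries and 4.96 ± 2.93 for those of DN-GMPs. The basophil libraries averaged 0.139 ± 0.240 CPM of Mitf. Lymphoid markers (6 of 12 listed, mostly Nkg7) and stromal markers (1 of 6, Pecam1) were sparse. The part of these cell types in the changes of Gfi1 and Gfi1b was not tested.

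The genes most like each of the 4 in course were ranked by Pearson r of log2 values over the 12 libraries, among 9480 genes with a mean of at least 10 CPM in a population. The r values describe libraries that fall into 4 populations and are given without a test. For Gfi1b, 4 of the 5 nearest were Myo1e (0.99), which encodes a myosin, Slc18a2 (0.99), the vesicular monoamine transporter, Ogt (0.98), a glycosyltransferase, and Rsrp1 (0.98). Slc18a2 stood at 5.19 ± 1.55 CPM in DN-GMPs, 81.1 ± 17.7 in Pro-BMPs, 418 ± 68.3 in Pre-BMPs, then 381 ± 33.8 in basophils. For Gfi1 the 5 nearest were Tmem165 (0.97), Anxa3 (0.97), an annexin, Alas1 (0.96), the first enzyme of heme synthesis, Agps (0.96), an enzyme of ether lipid synthesis, and Hp (0.96), haptoglobin. Alas1 stood at 1101 ± 159, 1044 ± 22.2, 129 ± 12.1 and 157 ± 17.7 CPM in the same order.

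An r above 0.95 was reached by 54 genes for Gfi1b and 12 for Gfi1, and by 0 for Kdm1a and Rcor1. The nearest to Kdm1a were Phf23 (0.92), Pold4 (0.89), Bicra (0.88), Rnf11 (0.88) and Spryd3 (0.87). The nearest to Rcor1 were Zbtb24 (0.84), Trappc11 (0.83), Maml1 (0.82), Zfp94 (0.82) and Acsl4 (0.80). These names depended on the measure: with Spearman ranks, 0 of the 5 nearest to Gfi1 were again among its first 5, 1 for Gfi1b, 2 for Kdm1a and 1 for Rcor1. Between the paralogs r was -0.80, between Kdm1a and Rcor1 0.49, and between Gfi1b and Kdm1a 0.45.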

How the data were processed

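The authors deposited a table of log2 values for 14560 genes in 12 libraries. Trimmomatic, STAR, deepTools and HTSeq are named in the submitters' processing notes; their versions, the genome build and the annotation were not given in those notes. Double-sorted cells went into TRIzol, and SmartSeq v4 and Nextera XT kits were used, per the labels' protocols. The deposited log2 values were read from the numbers as log2 of reads plus 0.5 per 1000000 of a scaled library size; 100% of values gave whole reads, to within 0.001 read. The 3 rows for reads on no gene were left out; 6.65% to 12.6% of table reads lay outside annotated features.

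limma 3.58.1 (R 4.3.3) was fitted on all 12 libraries with 1 mean per population, no block and a mean-variance trend, two-sided, for 6 contrasts and a moderated F-test, and was tested on simulated data. The filter of 10 reads in 3 libraries removed 0 genes. CPM were computed without the added 0.5 read. Log2 changes of low genes depend on that addition. Lengths were exon unions of GENCODE M21, found for 99.7% of genes by identifier; the authors' annotation may differ. Members and lists (complex partners, other partners, SNAG relatives, demethylases, reported Gfi1 and Gfi1b targets, factors at their elements, and markers of 9 cell types) were chosen with earlier results of these data known. Named genes were the 4 members, the 5 most correlated with each, up to 3 called genes per list and step, and genes that set a marker sum or were at 0. Rcor2, Kdm1b, Kdm5c, Cdkn1a, Spi1, Camp, Ngp, Klf1, Hba-a1, Cma1, Tpsb2 and Mitf were named in addition, after their values were seen. Some genes of the rule are not reported here.

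Alternatives were voom weights, quantile normalization, scaling to total reads on listed genes, centring on the library median, 5 reads added, at least 1 CPM in 3 libraries, only the compared populations, a replicate block, no trend, and leaving out each library.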

Additional observations from a re-analysis of the deposited data

How the results depend on the processing

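Each called change of Gfi1 and Gfi1b kept its direction and its call in all alternatives and in all fits that left out a library. For Gfi1b from DN-GMPs to Pro-BMPs the limma adjusted p ran up to 0.0303, with voom weights. Kdm1a and Rcor1 in basophils depended on the scaling. Against DN-GMPs, Kdm1a was 0.29 with quantile normalization, 0.18 with total reads, 0.29 centred on the median, and 0.44, not called, with only those populations (limma adjusted p = 0.0818) or with no trend (0.0803). Against Pro-BMPs it was 0.39 with quantile normalization and 0.26 with total reads. Rcor1 with total reads turned to -0.10 against Pre-BMPs, -0.10 against Pro-BMPs and, for Pre-BMPs minus Pro-BMPs, 0.0049. Gfi1 in basophils minus Pre-BMPs was 0.93 and called with quantile normalization. The Kdm1a F statistic was 4.57 with voom weights (limma adjusted p = 0.0485).

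Without single libraries the ranges were 0.46 to 1.17 for Gfi1 in basophils minus Pre-BMPs, -0.0852 to 0.26 for Gfi1 in Pro-BMPs minus DN-GMPs, 0.31 to 0.52 for Kdm1a in basophils minus DN-GMPs, 0.43 to 0.61 for Kdm1a in basophils minus Pro-BMPs, -0.0362 to 0.22 for Kdm1a in Pre-BMPs minus DN-GMPs, -0.15 to 0.0843 for Rcor1 in Pre-BMPs minus Pro-BMPs, and 2.18 to 5.55 for the Kdm1a F statistic, called without Pre-BMP replicate 3. The cause was not tested.

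Same-numbered libraries showed no strong shared deviation (r of deviations from -0.0729 to 0.102 over 18 same-numbered pairs). Such values cannot show whether libraries of the same number came from the same mouse. The fit with the number as a block is given once: it left 312 genes called between Pro-BMPs and DN-GMPs against 369, gave Gfi1b 3.27 there (limma adjusted p = 1.55e-04), and gave Kdm1a an F of 5.31 (limma adjusted p = 0.0476). It ended the calls of Cbfa2t3, Prmt1 and Kdm5a from Pro-BMPs to Pre-BMPs and of Kdm5a and Irf8 from Pre-BMPs to basophils. The count of 369 was 228 with only those populations and 231 without Pro-BMP replicate 3. The count of 1382 genes between Pre-BMPs and Pro-BMPs was 885 without Pro-BMP replicate 1, 778 without Pro-BMP replicate 2 and 792 without Pre-BMP replicate 3.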
